A study of Mus musculus with 4 samples.

Results

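Connexins are the proteins of gap junctions. Transcript levels of 6 connexin genes, Gja1, Gjb1, Gjb2, Gjb5, Gjb6 and Gjc1, were read from mouse mammary cells in 3D culture. These 6 genes were listed by symbol, with earlier results of these data known, out of the 54446 genes in the deposited table. Their counts and medians set beside those of all genes are therefore a description. RNA was sequenced from cells sorted as basal or luminal from the mammary glands of wild type C57BL/6 mice, embedded in Matrigel, and cultured with DMSO, the solvent control, or with 100 μM baicalin, a flavonoid glucuronide of Scutellaria root. There was 1 library for each of the 4 conditions, named here basal DMSO, basal baicalin, luminal DMSO and luminal baicalin after their labels. The labels give neither the age of the mice nor how many animals were pooled for a library, and sorted cells in Matrigel lack the fat pad and stroma that surround them in the gland. With 1 library per condition, no difference below could be set against a spread between replicates, and no p-value is given.

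Connexins are membrane proteins that assemble as hexamers, called connexons, and a connexon of one cell docks with that of its neighbour to form a channel for ions and small metabolites. The alpha, beta and gamma letters of the gene symbols name subfamilies, and the composition of the channel sets which molecules pass. In the mammary gland, Gja1, which encodes Cx43, is known as the main connexin of the basal (myoepithelial) layer, whereas Gjb2 (Cx26), Gjb1 (Cx32) and Gjb6 (Cx30) are known from luminal cells, where Gjb2 and Gjb6 increase during pregnancy and lactation. Gjb5 (Cx31.1) is best known from skin and other stratified epithelia, and Gjc1 (Cx45) from the heart conduction system and smooth muscle.

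The levels are FPKM, in which the fragments of a gene are divided by its exon length and by library depth, so levels of different genes can be set side by side. Between 19356099 and 20648794 fragments lay behind each library, and a single fragment counted over 1 kb of exon equalled 0.0484 to 0.0517 FPKM. The basal markers and most of the luminal markers went against the labels. All 10 basal markers examined were higher in the libraries labelled luminal than in those labelled basal under both treatments, and their summed level was 1761 FPKM in basal DMSO, 479.4 FPKM in basal baicalin, 5404 FPKM in luminal DMSO and 7199 FPKM in luminal baicalin. Keratins weigh most in this sum, and Krt14 was the highest gene in every library. With baicalin under the luminal label, 5 of the 10 were higher and 5 lower, among the latter Acta2, Tagln, Cnn1, Mylk and Oxtr. Of 12 luminal markers, 10 were lower in luminal DMSO than in basal DMSO and 11 were lower in luminal baicalin than in basal baicalin. The exceptions in DMSO were 2 hormone receptor genes, Pgr (1.08 FPKM in basal and 4.81 FPKM in luminal DMSO) and Esr1 (0.992 and 1.44 FPKM). With baicalin the exception was Pgr (0.91 FPKM in basal and 2.09 FPKM in luminal baicalin). The summed levels of the 12 luminal markers, in the same order of libraries as for the basal sum, were 4297, 2944, 1238 and 1038 FPKM. The names basal and luminal below therefore stand for the labels of the libraries, not for a cell type seen in the data.

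Of the 6 genes, 2 lie next to each other on chromosome 14 and the others on separate chromosomes, in the mouse genome GRCm38 with the GENCODE M21 annotation. Gja1 lies on chromosome 10 (56377330 to 56402513, plus strand). Gjb2 lies on chromosome 14 (57098600 to 57104702, minus strand), and 18600 bases separate it from Gjb6 on the same strand (57123303 to 57133611). Gjb5 lies on chromosome 4 (127354809 to 127358181, minus strand), Gjc1 on chromosome 11 (102799579 to 102819700, minus strand) and Gjb1 on chromosome X (101376378 to 101385629, plus strand). As is typical of connexins, the coding sequence of each of the 6 genes lies in 1 exon, and it has 678 bases in Gjb2, 783 in Gjb6, 813 in Gjb5, 849 in Gjb1, 1146 in Gja1 and 1188 in Gjc1, without the stop codon. No exon of the 6 genes overlaps an exon of another gene, and none of the 6 has a near-identical copy in the annotated transcripts, so their fragments are not shared with another gene on either ground.

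The 250 bases before the start site are shown for Gjb2, Gjb6 and Gja1, because Gjb2 and Gjb6 were higher with baicalin under both labels while Gja1 was lower with baicalin under the basal label. The sequences come from RefSeq on GRCm38.p6, run 5′ to 3′ on the strand of the gene and end at the base before the start. They cover chr14:57104703-57104952 for Gjb2, chr14:57133612-57133861 for Gjb6 and chr10:56377050-56377299 for Gja1, whose RefSeq start lies 30 bases before the GENCODE start. Capitals mark a match to one of 6 short motifs searched on both strands.
Gjb2: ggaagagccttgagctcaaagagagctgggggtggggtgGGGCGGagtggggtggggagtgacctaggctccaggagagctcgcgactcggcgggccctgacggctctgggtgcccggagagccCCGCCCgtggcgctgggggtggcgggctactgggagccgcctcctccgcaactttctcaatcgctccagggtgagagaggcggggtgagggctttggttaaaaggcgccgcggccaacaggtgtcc
Gjb6: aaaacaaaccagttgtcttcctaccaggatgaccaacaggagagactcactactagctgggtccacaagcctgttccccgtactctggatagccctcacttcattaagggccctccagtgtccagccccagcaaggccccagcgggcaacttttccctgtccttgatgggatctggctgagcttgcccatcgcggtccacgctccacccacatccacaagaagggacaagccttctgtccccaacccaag
Gja1: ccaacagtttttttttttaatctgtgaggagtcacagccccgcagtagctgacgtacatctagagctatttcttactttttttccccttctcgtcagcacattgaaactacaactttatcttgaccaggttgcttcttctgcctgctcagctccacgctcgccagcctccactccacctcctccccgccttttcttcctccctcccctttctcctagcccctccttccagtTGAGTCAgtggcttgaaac
The window of Gjb2 holds 18 CG dinucleotides at 69.2% GC, against 5 at 56.8% for Gjb6 and 6 at 50.0% for Gja1. The median over 32851 mouse promoters of the same length is 6 CG at 52.4% GC. The motifs searched were the GC box GGGCGG (in 32.7% of these promoters), the TATA box TATAAA (12.4%), the AP-1 site TGANTCA (6.75%), the core of the antioxidant response element TGACNNNGC (10.2%), the ATF4 site TGATGNAA (3.45%) and the E-box CACGTG (6.02%). Gjb2 holds 2 GC boxes, at 211 to 206 and 126 to 121 bases before the start. The window of Gja1 holds 1 AP-1 site at 19 to 13 bases before the start, and that of Gjb6 holds none of the 6 motifs. These matches describe letters in a window and not binding, and the promoters of the 3 genes differ in base composition although 2 of the genes are neighbours.

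Gja1 and Gjb2 were the abundant connexins of the 6, and the other 4 stayed below 2 FPKM in every library. The level of Gja1 was 59.8 FPKM in basal DMSO (12176 fragments), 19.7 FPKM in basal baicalin (4101 fragments), 33.5 FPKM in luminal DMSO (6652 fragments) and 33.2 FPKM in luminal baicalin (7042 fragments). It was highest in basal DMSO and lowest in basal baicalin, and the 2 luminal libraries lay between them at nearly the same level. The level of Gjb2 was 57.4 FPKM in basal DMSO (2741 fragments), 92.9 FPKM in basal baicalin (4533 fragments), 5.35 FPKM in luminal DMSO (249 fragments) and 41.2 FPKM in luminal baicalin (2045 fragments). It was thus lowest in luminal DMSO and higher with baicalin under either label.

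Among the low connexins, Gjb6 followed the same order of treatments as Gjb2. Its level was 0.565 FPKM in basal DMSO (30 fragments), 1.31 FPKM in basal baicalin (71 fragments), 0.329 FPKM in luminal DMSO (17 fragments) and 1.92 FPKM in luminal baicalin (106 fragments). Gjb5 was detected at 0.527, 0.115, 0.540 and 1.13 FPKM in the same order of libraries, from 18, 4, 18 and 40 fragments. The level of Gjc1 was 0.101 and 0.0788 FPKM in the basal libraries, from 10 and 8 fragments, and 1.34 and 1.38 FPKM in the luminal libraries, from 130 and 143 fragments. Gjc1 therefore separated the libraries by label, and Gjb6 by treatment.

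Gjb1 was at the limit of detection. No fragment of Gjb1 was counted in basal DMSO, where 3 fragments would equal 0.0885 FPKM and the 95% interval reached 0.109 FPKM. In basal baicalin, luminal DMSO and luminal baicalin, 1, 3 and 4 fragments were counted, or 0.0289, 0.0908 and 0.114 FPKM. Gjb1, a connexin known from the lactating gland and the liver, was thus barely detected in these cultures, and a difference between conditions was not detectable at this depth.

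**Figure D1:**
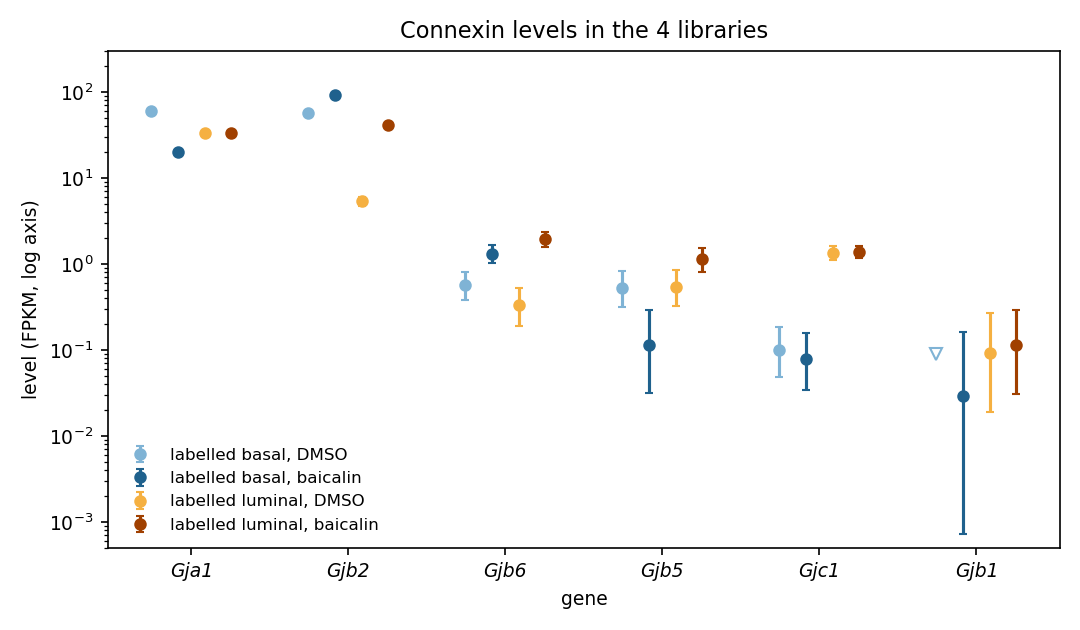
Levels of the 6 connexins in the 4 libraries, in FPKM on a log axis, with 95% intervals from the fragments behind each value (counting error only). The open triangle is the level of 3 fragments for Gjb1 in basal DMSO, where none was counted; Gja1 and Gjb2 lie above 5 FPKM in every library, and the other 4 genes lie below 2 FPKM.

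The order of the levels differed between libraries. In basal DMSO, Gja1 and Gjb2 had overlapping intervals, as did Gjb6 and Gjb5, and Gjc1 and Gjb1. In basal baicalin, the order was Gjb2, Gja1 and Gjb6, each apart from the next, followed by Gjb5, Gjc1 and Gjb1, whose neighbouring intervals overlapped. In luminal DMSO, Gja1, Gjb2 and Gjc1 led, each apart from the next, and the intervals of Gjb5 overlapped those of Gjb6, and those of Gjb6 those of Gjb1. In luminal baicalin, Gjb2 was above Gja1, and Gjb6, Gjc1 and Gjb5 followed with overlapping intervals between neighbours. Part of this order depends on the exon length used. The exons of Gja1 add up to 10257 bases over 8 annotated transcripts, while its longest coding transcript has 3182 bases. Per kilobase of that transcript, Gja1 stood at 192.7, 63.5, 108.0 and 107.2 on the same scale as FPKM, above Gjb2 in every library but basal baicalin. Ratios of 1 gene between libraries do not depend on this length.

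For the effect of baicalin under the basal label, each level in basal baicalin was divided by that in basal DMSO. Gja1 was 3.03-fold lower with baicalin (95% interval 2.93 to 3.14), a change of -1.55 on the scale of log2(FPKM + 1), which understates the change of low genes. Gjb2 was 1.62-fold higher (1.54 to 1.70), a log2 change of 0.69. Gjb6 was 2.32-fold higher (1.49 to 3.68), a log2 change of 0.56. Gjb5 was 4.60-fold lower (1.51 to 18.7) with a log2 change of -0.45, a value that rests on 18 against 4 fragments. For Gjc1 the ratio of baicalin to DMSO was 0.783, with an interval of 0.269 to 2.20 that includes no difference. Both Gjb2 and Gjb6 were thus higher and both Gja1 and Gjb5 lower, by more than the counting error of 1 library each. Only Gja1 passed a change of 1 on the log2 scale. With a pseudocount of 0.1 FPKM or none in place of 1, Gjb5 passed it as well (-1.55 and -2.20), and Gjb6 was higher by over 1. With TPM, Gjb5 was at -1.05. TPM was 3.37 to 3.64 times FPKM in these libraries, so the 1 that is added weighs less there, as with a smaller pseudocount. Genes were compared where every library had an FPKM above 0. This left 17787 genes, with 5 of the 6 connexins but not Gjb1, and 3.33% of them fell below a log2 change of -1 while 2.15% exceeded 1. For 248 genes the change was lower than that of Gja1. The median log2 change of the 5 connexins was -0.03, beside 0.01 for all genes. In the same comparison the basal keratin Krt5 was at 128.0 FPKM in basal DMSO and 3.01 FPKM in basal baicalin, and the luminal keratin Krt8 at 1573 and 754.2 FPKM. Of the 10 basal markers, 9 were lower with baicalin and 1 was higher. Of the 12 luminal markers, 10 were lower and 2 higher, Cldn3 (143.9 and 191.8 FPKM) and Cldn4 (272.7 and 475.5 FPKM). The part of these shifts in the lower Gja1 was not tested, and in bulk RNA a smaller share of cells expressing a gene and less RNA per cell cannot be told apart.

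Under the luminal label, Gjb2, Gjb6 and Gjb5 were higher with baicalin and the level of Gja1 was not. Gjb2 was 7.70-fold higher (95% interval 6.75 to 8.82), with a log2 change of 2.73 that was exceeded by 13 of the 17787 genes. Gjb6 was 5.84-fold higher (3.48 to 10.4), a log2 change of 1.14 that 327 genes exceeded. Gjb5 was 2.08-fold higher (1.17 to 3.86), a log2 change of 0.46. By contrast, the ratio of Gja1 was 0.992, with an interval of 0.960 to 1.03. The ratio of Gjc1 was 1.03 (0.807 to 1.32). Of the 5 connexins, Gjb2 and Gjb6 exceeded a log2 change of 1 and none fell below -1 (without a pseudocount Gjb5 exceeded 1 as well, at 1.06), beside 2.37% and 1.59% of the 17787 genes. The median log2 change of the 5 connexins was 0.46, beside -0.02 for all genes. For Gjb1, 4 against 3 fragments gave a ratio of 1.25 with an interval of 0.211 to 8.53. The summed level of 6 squamous markers of stratified epithelium was 28.5 FPKM in luminal DMSO and 102.2 FPKM in luminal baicalin, while under the basal label it was 7.41 and 1.82 FPKM. Most of the basal difference was Sprr1a (5.87 and 0.856 FPKM), Ivl and Krtdap were at 0 in basal baicalin, and Krt1, Krt10 and Lor differed by less than the counting error. The part of this list in the higher Gjb2 and Gjb6 was not tested.

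**Figure D2:**
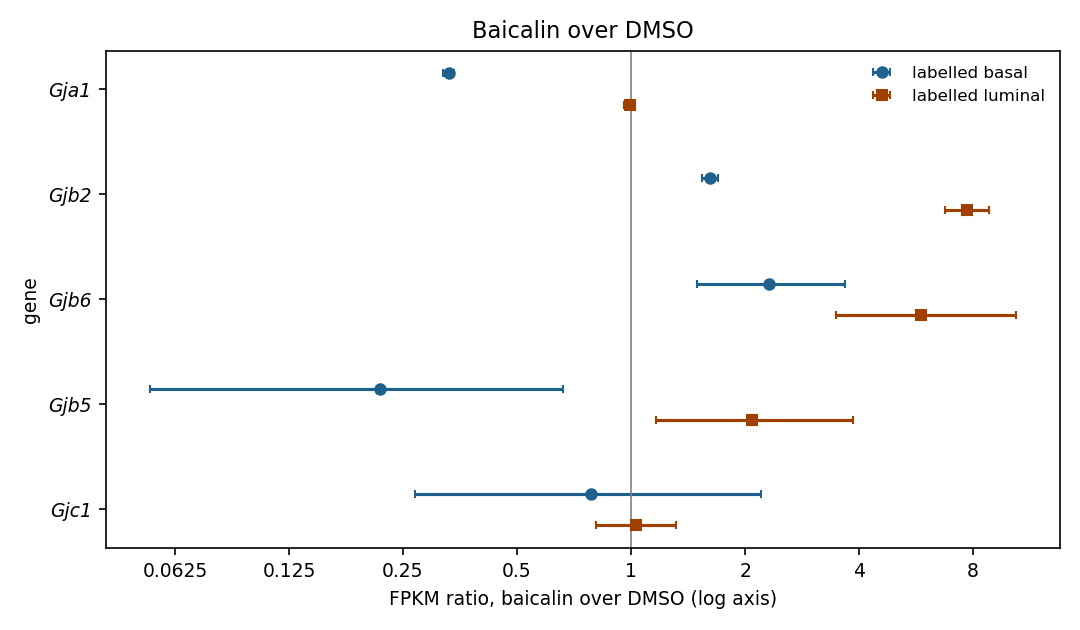
Ratio of the FPKM with baicalin to that with DMSO for 5 of the 6 connexins, on a log axis, for the libraries labelled basal (circles) and luminal (squares), with exact 95% intervals that cover counting error only. Gjb1 is left out for want of fragments; for Gja1 the basal ratio is 0.330 and the luminal ratio 0.992, and for Gjb2 both lie above 1.

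The baicalin ratios of the same gene under the 2 labels were then divided by each other. The luminal ratio was 3.01 times the basal ratio for Gja1 (95% interval 2.87 to 3.16) and 4.76 times for Gjb2 (4.14 to 5.47). For the low genes it was 9.27 times for Gjb5 (2.57 to 43.1), 2.51 times for Gjb6 (1.24 to 5.25) and 1.32 times for Gjc1 (0.452 to 3.96). The ratio under the luminal label was therefore the larger one for Gja1, Gjb2, Gjb5 and Gjb6, and the interval for Gjc1 included 1. These intervals hold the counting error of 4 libraries and no variation between cultures, so the difference between the labels was not tested.

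Between the labels, Gjb2 and Gjc1 showed the widest differences of the 6 connexins under DMSO. Gjb2 was 10.7-fold lower in the library labelled luminal (95% interval 9.42 to 12.3), and 18 of the 17787 genes were lower by more on the log2 scale, where its change was -3.20. Gja1 was 1.78-fold lower (1.73 to 1.84), a log2 change of -0.82. Gjc1 was 13.3-fold higher (7.02 to 28.5), a log2 change of 1.09. These 3 differences exceeded the counting error, while those of Gjb6 (luminal to basal ratio 0.581, interval 0.301 to 1.09) and Gjb5 (1.03, 0.503 to 2.09) did not. Past a log2 change of 1, 1 connexin was higher (Gjc1) and 1 lower (Gjb2), beside 4.71% and 3.86% of the 17787 genes. The median of the 5 connexins was -0.24, beside 0.01 for all genes.

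With baicalin, the direction for Gja1 was turned around. Gja1 was 1.69-fold higher in the library labelled luminal (95% interval 1.62 to 1.75), a log2 difference of 0.73. Gjb2 was 2.26-fold lower (2.14 to 2.38), a log2 difference of -1.15. Gjc1 was 17.6-fold higher (8.67 to 41.5), a log2 difference of 1.14. Gjb2 and Gjc1 thus kept the direction seen in DMSO. Gjb6 was 1.47-fold higher (1.08 to 2.01) and Gjb5 9.82-fold higher (3.55 to 37.8) under the luminal label, with log2 differences of 0.34 and 0.93. Gjc1 alone exceeded a log2 difference of 1 (with Gjb5 at a pseudocount of 0.1 or none, or with TPM) and Gjb2 alone fell below -1, beside 5.24% and 2.99% of the 17787 genes. The median of the 5 connexins was 0.73, beside -0.03 for all genes. Each DMSO library and each baicalin library enters a treatment comparison as well as a label comparison, so these are not independent of the ratios given for baicalin.

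Gjc1, though low in every library, was higher under the luminal label, as were all 10 basal markers, among them Acta2. Acta2, the smooth muscle actin of myoepithelial cells, was at 7.66 and 3.49 FPKM in the basal libraries and 554.7 and 416.6 FPKM in the luminal libraries. Of 6 fibroblast markers, 1 was higher in luminal than in basal DMSO (Pdgfra, 0.593 and 6.30 FPKM) and 5 were lower, while all 6 were higher in luminal than in basal baicalin. Their summed level was at most 10.4 FPKM, that of 5 endothelial markers at most 3.48 FPKM, and the leukocyte gene Ptprc was at most 0.0138 FPKM. Of 5 immune markers only Cd68, a lysosomal protein, was well detected, and its level was 7.49, 51.5, 4.44 and 13.7 FPKM. Cd3e was listed at 0 in 3 libraries, and Ptprc and Adgre1 were at 0 in basal baicalin. The part of these cell types in the connexin levels was not tested.

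**Figure D3:**
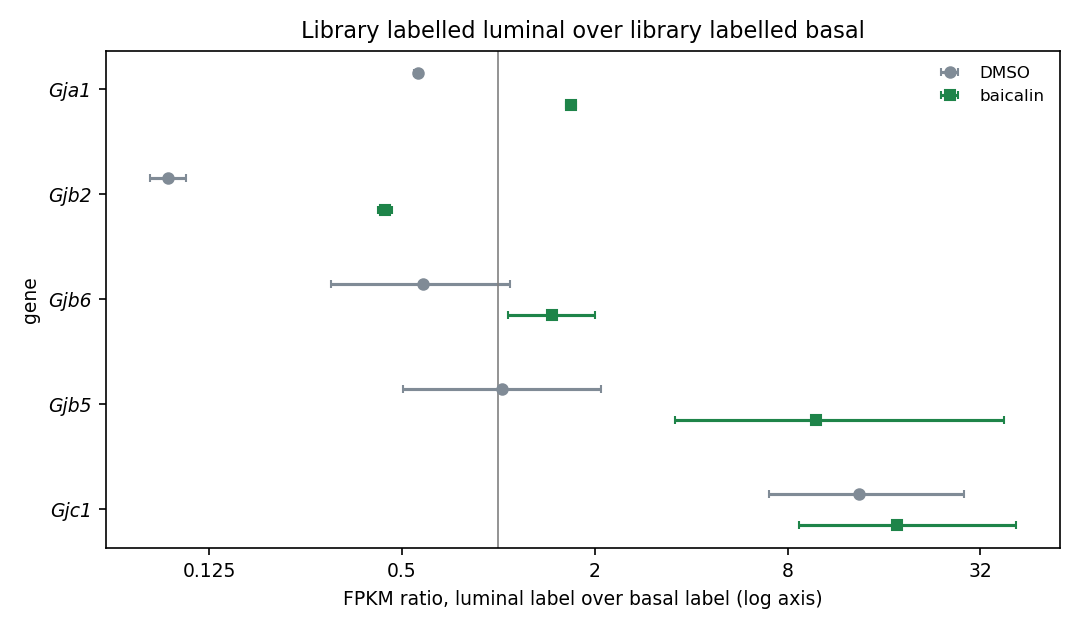
Ratio of the FPKM in the library labelled luminal to that in the library labelled basal, on a log axis, in DMSO (circles) and with baicalin (squares), with exact 95% intervals that cover counting error only. Gjb2 lies below 1 and Gjc1 above 1 under both treatments, and Gja1 lies at 0.560 in DMSO and 1.69 with baicalin.

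The make-up of the summed level of the 6 genes was then examined, as a description of each library, since bulk RNA does not show which connexins are made by the same cell. Gja1 made up 50.5% of the summed FPKM of the 6 genes in basal DMSO and 17.3% in basal baicalin, and 81.4% in luminal DMSO and 42.1% in luminal baicalin. The share of Gjb2 was 48.5% and 81.4% in the basal libraries and 13.0% and 52.1% in the luminal ones. The remaining genes held little of the sum, so the 2 shares mirror each other. The Gjb2 to Gja1 ratio of FPKM was 0.960 in basal DMSO, 4.71 in basal baicalin, 0.160 in luminal DMSO and 1.24 in luminal baicalin. It was 4.91-fold higher with baicalin under the basal label (95% interval 4.63 to 5.21) and 7.76-fold higher under the luminal label (6.77 to 8.89), and exon length cancels in both values. The shares and levels themselves depend on the length. Per longest coding transcript, the share of Gja1 was 76.6% and 40.1% in the basal libraries and 92.1% and 69.1% in the luminal ones, that of Gjb2 22.8%, 58.6%, 4.56% and 26.5%, and the Gjb2 to Gja1 ratio was 0.298, 1.46, 0.0495 and 0.384. The share of Gja1 was lower with baicalin under each label with either length. Under the basal label the shift came from a lower Gja1 and a higher Gjb2, and under the luminal label from Gjb2, with an interval for Gja1 that included no difference. The sum of the 6 genes was 118.4 and 114.1 FPKM in the basal libraries and 41.2 and 79.0 FPKM in the luminal libraries, a baicalin to DMSO ratio of 0.964 and 1.92. Per longest coding transcript this ratio was 0.630 and 1.32, so whether the sum was lower with baicalin under the basal label depends on the length used for Gja1.

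**Figure D4:**
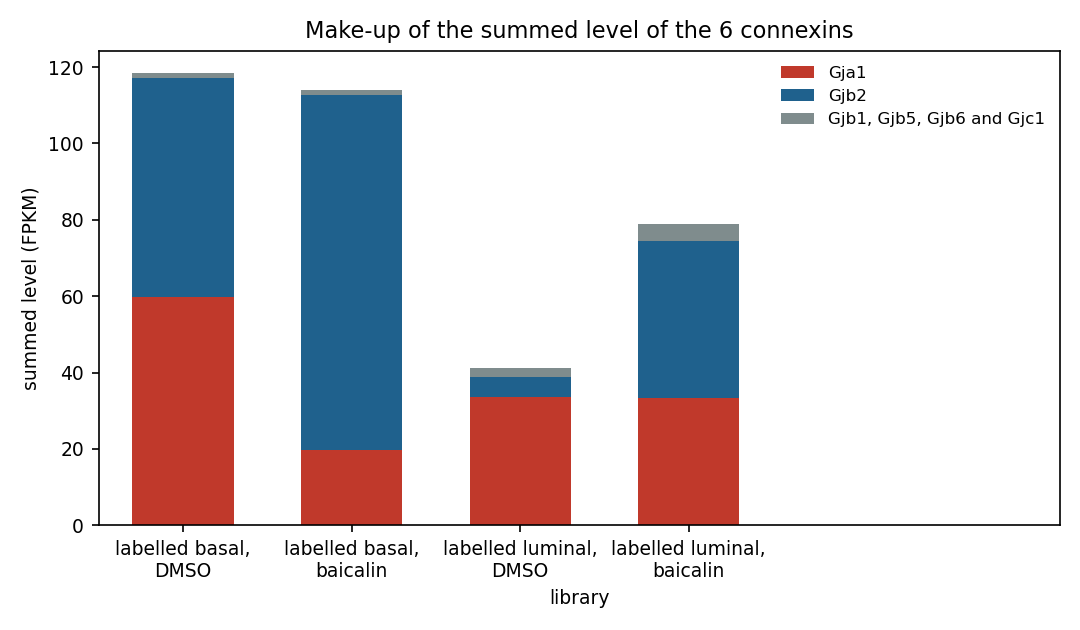
Summed FPKM of the 6 connexins in each library, stacked with Gja1 at the bottom, then Gjb2, and the other 4 genes together on top. The block of Gja1 stands for 59.8 FPKM in basal DMSO and 19.7 FPKM in basal baicalin, and that of Gjb2 is smallest in luminal DMSO (5.35 FPKM).

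A list of 13 further connexin and pannexin genes was read in the same way, and 4 of them (Panx1, Gja4, Gja6 and Panx2) passed the filter. On the scale of log2(FPKM + 1), which understates the change of low genes, none of the 4 was past a change of 1 in any of the 4 comparisons. In these comparisons 1.59% to 5.24% of all genes were past it in a direction, so that a count of 0 among 4 genes says little. Their median log2 differences were -0.03 and 0.32 for baicalin under the basal and the luminal label, and 0.14 and 0.10 between the labels in DMSO and with baicalin. Panx1, a pannexin that forms channels to the outside of the cell, was the highest of the 13 in every library, at 2.96, 2.24, 3.78 and 4.94 FPKM. Gja4 (Cx37), known from blood vessels, had between 3 and 18 fragments. Its ratio of baicalin to DMSO was 0.576 under the basal label (95% interval 0.236 to 1.33) and 5.62 under the luminal label (1.64 to 29.8). Gja6 went the other way under the luminal label, with 16 fragments in DMSO and 5 with baicalin. Its ratio was 0.293 there (0.0839 to 0.837). Under the basal label it was 5.87 (0.713 to 270), from 1 and 6 fragments. Gjd2, Gjd4 and Gje1 were listed at 0 in all 4 libraries. Panx2, singled out after its values were seen, was at 0.0280, 0.822, 0.0287 and 0.283 FPKM from 2, 60, 2 and 21 fragments. The ratio of baicalin to DMSO for Panx2 was 29.4 under the basal label (95% interval 7.78 to 248) and 9.84 under the luminal label (2.41 to 86.6).

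Neighbouring connexin genes were set side by side on chromosome 14, where Gja3, Gjb2 and Gjb6 span 99152 bases on the minus strand. Gjb2 and Gjb6 were both higher with baicalin under each label, but at levels far apart. The level of Gjb2 was 101.5 times that of Gjb6 in basal DMSO, 71.0 times in basal baicalin, 16.3 times in luminal DMSO and 21.4 times in luminal baicalin. Gja3, the lens connexin on the other side of Gjb2, had at most 3 fragments in any library.

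Transcripts of proteins that hold, move and modify gap junctions, and of 10 transcription factors, were examined as a list of 41 genes. All of them passed the filter. Past a log2 change of 1, 1 was higher with baicalin under the basal label and none was lower, beside 2.15% and 3.33% of all genes. It was Sqstm1, a receptor of selective autophagy, at 204.5 and 590.1 FPKM. Under the luminal label 3 were higher and 1 was lower, beside 2.37% and 1.59% of all genes. The 3 higher genes were Sqstm1, Fosl1 and Dbn1, with Sqstm1 at 110.3 FPKM in luminal DMSO and 237.0 FPKM in luminal baicalin. Foxa1, a transcription factor of luminal cells, was at 9.30 FPKM in luminal DMSO and 1.09 FPKM in luminal baicalin, Fosl1, an AP-1 subunit, at 2.21 and 9.50 FPKM, and Dbn1, an actin-binding protein that holds Cx43 at the membrane, at 5.41 and 15.1 FPKM. Foxa1 was at 1.80 FPKM in basal DMSO and 1.35 FPKM in basal baicalin. Between the labels, 4 were higher and 2 lower in luminal DMSO, beside 4.71% and 3.86% of all genes. Of these, 4 of the higher and 1 of the lower genes were transcription factors. In luminal baicalin 2 were higher and 2 lower, beside 5.24% and 2.99% of all genes, with 1 transcription factor in each direction. With so few genes, counts of this size say nothing particular about the list. Jun, the partner of FOS proteins in AP-1, was at 47.6 FPKM in basal DMSO, 53.0 FPKM in basal baicalin, 224.3 FPKM in luminal DMSO and 129.8 FPKM in luminal baicalin. The median log2 differences of the list lay between -0.08 and -0.01 in the 4 comparisons, and those of the 5 connexins between -0.24 and 0.73.

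Likeness of pattern was measured as the Euclidean distance between log2(FPKM + 1) values, centred per gene, over the 4 libraries, among 8571 protein-coding genes with at least 5 FPKM in a library. The 1 FPKM that is added flattens the pattern of a low gene, so many genes lie close to it. With only 4 libraries, the distances are a description only. The genes nearest to Gja1 were Psmb10, an immunoproteasome subunit (distance 0.155), Fam83a (0.211) and Lgals1, which encodes galectin-1 (0.252), and 36 genes lay within 0.5. The pattern of Gjb2 was less common, with 1 gene within 0.5. This was Ptgs2, the inducible cyclooxygenase (0.459), followed by Pglyrp3, a peptidoglycan recognition protein (0.735), and Tnfrsf23 (0.767). Around the low genes the counts within 0.5 were 110 for Gjb6 (nearest Gsto1, Nfil3 and Klf9), 206 for Gjc1 (S100a16, Arntl and Tnfaip8), 393 for Gjb5 and 4515 for Gjb1 (Emc1, Ufm1 and Rchy1). For low genes, nearness on this scale is not likeness of fold. Gjc1 was 13.3-fold higher in luminal than in basal DMSO, while S100a16 was at 29.1 FPKM in basal and 59.8 FPKM in luminal DMSO. The level of Gjb1 itself varied over a range of 0.155 on the log2 scale over the 4 libraries.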

How the data were processed

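Sequenced RNA came from 4 libraries of mouse mammary cells grown in 3D, 1 for each label (basal or luminal) and treatment (DMSO or 100 μM baicalin). The authors prepared stranded libraries from poly(A) RNA, mapped the reads with HISAT2 to GRCm38, counted them with featureCounts on Ensembl genes and deposited FPKM for 54446 genes. The submitters' processing notes also name Bowtie 0.12.2, and its role is not given in the sources used here. Nor do they say whether fragments were counted by strand. The 6 connexins and all gene lists were chosen with earlier results of these data known.

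The FPKM values multiplied by exon length (GENCODE M21, found for 54409 genes) fell on steps of 1 fragment. Of the genes under 60 fragments, 98.6% to 98.8% came out within 0.1 of a whole number, which gave the depth of each library. Changes were computed as log2((FPKM + 1)/(FPKM + 1)) for 17787 genes, those above 0 FPKM in every library, and a change of more than 1 was taken as past the fold. Ratios of FPKM carry exact Clopper-Pearson 95% intervals from the fragments. Ratios of ratios carry conditional exact intervals, or a log normal approximation for Gja1 and Gjb2. These intervals cover counting error only, and the level of 3 fragments is shown in the plot in place of a count of 0. No test was made, since each condition has 1 library. Named genes were the 6 connexins, other connexins and pannexins with at least 1 FPKM in a library, the 3 partner or regulator genes with the largest change in each comparison, the 3 genes nearest to each connexin, and markers. Gja3, Gja4, Gja6, Gjd2, Gjd4, Gje1 and Panx2 lay below 1 FPKM in every library and were named outside this rule. Some genes that this rule selects are not reported here. Of 42 partner and regulator genes, Hgs was left out because it has more than 1 row. Promoters came from RefSeq, which gave a window for 5 of the 6 connexins. Near-identical copies were searched with BLAST 2.17.0, at 95% identity or more over at least 200 bases. The computation was tested on simulated data. The tools were scipy 1.17.1, pandas 2.3.3 and numpy 2.4.6 under Python 3.11.15, with matplotlib 3.10.9 for plots.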

Additional observations from a re-analysis of the deposited data

Results flagged for a closer look

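Of the genes named with values above 0 in every library, those listed here had baicalin changes of opposite sign under the 2 labels. Each condition had 1 library, and this difference was not tested. The log2 change of Gjb5 was -0.454 under the basal label and 0.465 under the luminal label. Panx1 had changes of -0.288 and 0.314. The changes of Gjc1, -0.0290 and 0.0255, both lay within the counting error. Of the genes described beside the connexins, Gja4 had changes of -0.223 and 0.475, Gja6 of 0.162 and -0.332, and Pdgfra of 0.0329 and -1.45. The basal changes of Gja4, Gja6 and Pdgfra lay within the counting error. Jun had changes of 0.151 and -0.785, Krt5 of -5.01 and 0.261, Krt14 of -1.84 and 0.440, and Sprr1a of -1.89 and 1.95. Among the genes likest in pattern to a connexin, Fam83a had changes of -1.59 and 0.0407, Psmb10 of -1.46 and 0.116, and S100a16 of -0.0494 and 0.130.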

How the results depend on the processing

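No paired analysis was possible because each condition has 1 library, and for the same reason no library could be left out. The shares of the summed level were not run with further connexin genes in the sum. Depth limits Gjb1, Gjb5 and Gjc1 most, and the variation between cultures is unknown for every gene. Of 20 changes of the 5 connexins, 20 kept their sign with a pseudocount of 0.1 FPKM and without one, and 19 with TPM and 19 when centred on the median change. The exceptions were Gjb5 between the labels in DMSO (-0.05 with TPM) and Gja1 under the luminal label.

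The counts of connexins past the fold moved with the pseudocount and the threshold. With baicalin under the basal label, 1 was higher with a pseudocount of 0.1 or none (in place of 0), and 2 were lower with 0.1, none or TPM (in place of 1), where Gjb5 had a change of -1.55, -2.20 or -1.05. In luminal against basal baicalin, 2 were higher in these 3 settings, in place of 1. With a threshold of 2, 1 was higher with baicalin under the luminal label (Gjb2, in place of 2, or 3 without a pseudocount), 0 were lower under the basal label, 0 were higher in luminal DMSO, and 0 were higher and 0 lower in luminal baicalin. Among genes with at least 1 FPKM in a library of the comparison, the shares of all genes past the fold were 3.52% higher and 5.02% lower with baicalin under the basal label, 3.78% and 2.73% under the luminal label, 7.34% higher in luminal DMSO and 7.99% higher in luminal baicalin. Levels per longest coding transcript, an alternative chosen after seeing the data, put Gja1 above Gjb2 in luminal baicalin (Gjb2 to Gja1 ratio 0.384) and in basal DMSO (0.298), and gave the sum of the 6 genes a baicalin to DMSO ratio of 0.630 under the basal label, in place of 0.964.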
